A study of Homo sapiens with 12 samples.

Results

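The genes described here are 43 lysosome and autophagy genes, a list given by symbol that covers the MiT/TFE transcription factors, lysosomal hydrolases and membrane proteins, the proton pump and the autophagy machinery. Each symbol was matched to an Ensembl gene of the deposited count table, which lists 61552 genes. All 43 symbols were matched, and all 43 were among the 20304 genes that passed the filter on low counts. Polyadenylated RNA of cultured human neuroblastoma cells was sequenced in 12 libraries, 3 in each of 4 groups. The lines SK-N-AS and SK-N-BE(2), both labelled wild type, were each kept as controls or given ML210. ML210 inhibits GPX4, the selenoenzyme that reduces lipid peroxides, and was given overnight at a dose that the labels do not state. The series states that it compares a line with MYCN amplification, SK-N-BE(2), with a line without it, SK-N-AS, and each library carries a batch number from 1 to 3.

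Lysosomes are acidic organelles that break down proteins, lipids and glycans. A rotary proton pump, the V-ATPase, acidifies them, cathepsins and glycosidases work in their lumen, and a set of heavily glycosylated and channel proteins makes up their membrane. Autophagy delivers cytoplasm to them in vesicles whose membrane carries lipidated ATG8 proteins, to which receptors tether cargo. TFEB, TFE3 and MITF bind an E-box element in the promoters of many lysosomal genes and are held in the cytoplasm by mTORC1 when nutrients are plentiful, through the RAG GTPases and folliculin. Breakdown of ferritin in lysosomes supplies iron, and iron takes part in the lipid peroxidation that GPX4 counters.

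The libraries held between 54047293 and 83481963 counted reads. MYCN contradicted the stated amplification of the lines in every library. Its mean was 3558 CPM (counts scaled to 1000000 reads of library size) in the SK-N-AS control and 0.166 CPM in the SK-N-BE(2) control. The names below are therefore those of the labels, and each direction between the lines is a direction between labels. GPX4 was at 270 ± 11.2 CPM (SD, n = 3) in the SK-N-AS control and 247 ± 9.23 CPM in the SK-N-BE(2) control. The summed level of 10 adrenergic neuroblastoma markers was 7780 to 8161 CPM in the SK-N-AS controls and 1177 to 1572 CPM in the SK-N-BE(2) controls, where TH was under 1 CPM. The 6 mesenchymal markers summed to 269 to 351 CPM and 3132 to 3890 CPM in the same groups. PTPRC, a blood cell marker, reached 263 to 329 CPM in the SK-N-BE(2) controls while the other 7 blood markers were under 1 CPM, and the melanosome gene TYRP1 reached 324 to 431 CPM there with TYR at 0. Libraries 2 and 3 of label SK-N-AS held traces of genes that were high in label SK-N-BE(2), such as PRRX1 at 0.0260, 1.54 and 1.39 CPM in controls 1, 2 and 3.

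The element that MiT/TFE factors are known to bind contains the E-box CACGTG, and the promoters that carry it are shown first because they belong to members whose values are given below. RefSeq promoters (build GRCh38.p14, 250 bases before to 50 after each gene start) were at hand for 32 of the 43 members. The hexamer CACGTG, which reads the same on both strands, occurred in 8 of these (25.0%) against 8.77% of 27305 genes. A gene was counted if any of its promoters matched. The longer palindrome TCACGTGA, which contains it, occurred in 6 (18.8%) against 1.18%. The full CLEAR element of 10 bases, which contains both, occurred in 2, GAA and MCOLN1 (6.25%), against 0.421%. The 8 promoters with CACGTG are those of LAMP1, MCOLN1, CLN3, CTSA, CTSD, NEU1, GAA and ATP6V0D1. Of these, 5 are printed 5′ to 3′ on the gene's strand with each CACGTG in capitals, at chr19:7522568-7522623 (plus strand) for MCOLN1, chr6:31862907-31862962 (minus strand) for NEU1, chr11:1763957-1763986 (minus strand) for CTSD, chr13:113297032-113297238 (plus strand) for LAMP1 and chr17:80101490-80101555 (plus strand) for GAA.
MCOLN1: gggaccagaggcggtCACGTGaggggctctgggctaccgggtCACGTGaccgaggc
NEU1: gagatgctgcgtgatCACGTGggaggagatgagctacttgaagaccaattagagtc
CTSD: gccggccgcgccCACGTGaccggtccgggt
LAMP1: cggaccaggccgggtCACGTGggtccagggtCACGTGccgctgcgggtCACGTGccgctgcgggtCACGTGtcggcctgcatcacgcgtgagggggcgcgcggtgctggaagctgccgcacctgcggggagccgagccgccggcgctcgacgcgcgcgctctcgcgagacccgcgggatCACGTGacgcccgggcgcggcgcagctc
GAA: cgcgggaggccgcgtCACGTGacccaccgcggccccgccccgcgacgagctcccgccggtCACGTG
The LAMP1 stretch holds 5 copies, the MCOLN1 and GAA stretches 2 each, and the NEU1 and CTSD stretches 1 each. Counted from the gene start of the RefSeq table, the NEU1 copy lies 126 bases before it and the CTSD copy 47 bases before it. The GENCODE 29 gene of CTSD, whose coordinates are given below, starts farther upstream and includes its copy. These matches describe sequence and are not measurements of binding.

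In the libraries labelled SK-N-BE(2), ML210 raised 2 of the 43 genes, TFE3 and NEU1, and lowered none (edgeR's quasi-likelihood test with Benjamini-Hochberg adjustment over all 20304 genes, adjusted p under 0.05). Over all genes 0.818% were called higher and 0.557% lower. The fitted log2 fold change was above 0 for 35 of the 43 (50.2% of all genes), with a median of 0.19 against 0.001 over all genes. At an unadjusted p under 0.05, 21 were higher and 0 lower, where 13.5% of all genes passed in either direction. For 17 members every ML210 library lay above every control library, against 9.22% of all genes, and for none did every ML210 library lie below (8.18% of all genes). With the batch number as a block, the adjusted count was 16 members higher (3.42% of all genes), and without ML210 library 3 it was 15 (2.64%), of which 13 were called in both.

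ML210 library 3 of label SK-N-BE(2) was the lowest of the 3 ML210 libraries for 30 of the 43 members, against 34.4% of all genes. It was also the lowest for 149 of the 166 genes called higher in this comparison (89.8%). Within batches the direction was alike. Above their own control were 33 members in batch 1, 34 in batch 2 and 36 in batch 3, against 49.6%, 48.5% and 49.4% of all genes. The median log2 ratios were 0.21, 0.18 and 0.12, against 0.00 over all genes in each batch. What sets library 3 apart was not tested.

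**Figure D1:**
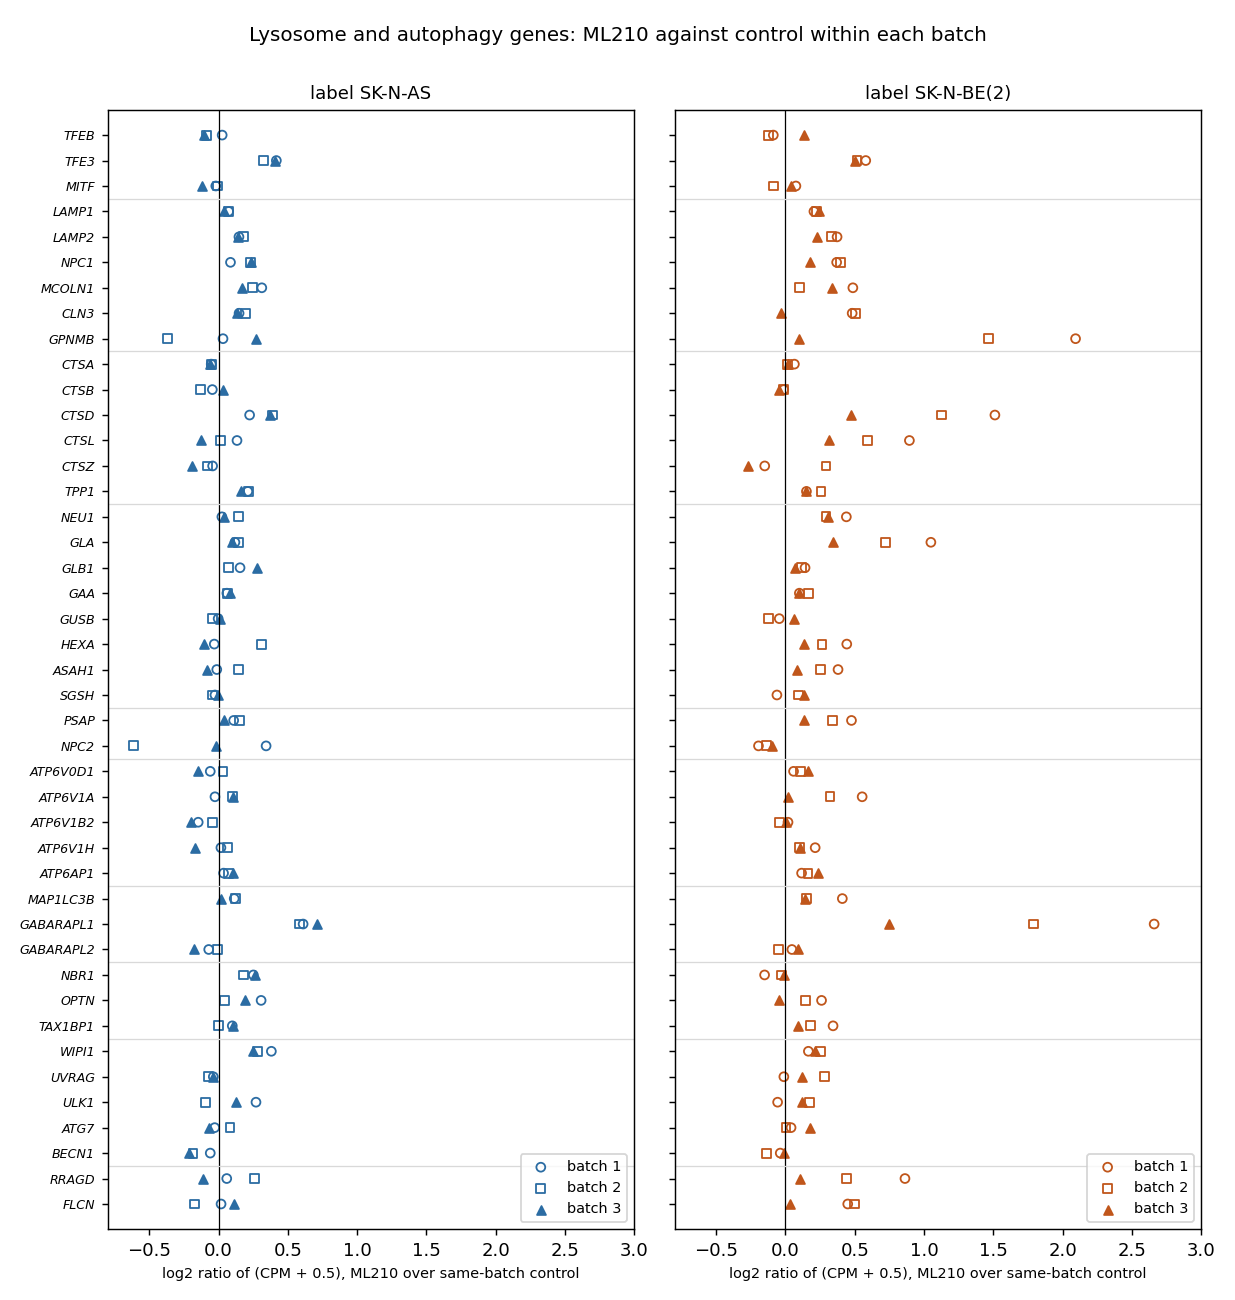
Log2 ratio of (CPM + 0.5) in each ML210 library over the control of the same batch (x axis), for the 43 genes grouped by role (y axis), in label SK-N-AS (left) and label SK-N-BE(2) (right); circles, squares and triangles are batches 1, 2 and 3. On the right most points lie above 0, and for CTSD, CTSL, GLA, GABARAPL1 and GPNMB batch 1 is farthest from 0 and batch 3 nearest.

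Of the MiT/TFE factors, TFE3 rose with ML210 and the other two did not pass the test. TFE3 (ENSG00000068323, chrX:49028726-49043486, minus strand, GRCh38) was at 66.6, 68.7 and 62.2 CPM in the SK-N-BE(2) controls and at 99.8, 98.6 and 88.4 CPM with ML210. Each ML210 library was well above all 3 controls. The log2 fold change was 0.54 (SE 0.0688, adjusted p = 0.00433), and it was called under all 19 alternative settings run. In label SK-N-AS the TFE3 controls were at 43.1, 46.2 and 40.5 CPM and the ML210 libraries at 57.7, 58.0 and 53.9 CPM. The groups did not overlap there either. That log2 difference was 0.39 (95% interval 0.23 to 0.54, adjusted p = 0.15), and it was called with the batch block (adjusted p = 0.00727).

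TFEB, the member of the family best known in lysosome biogenesis, was at 15.1, 17.1 and 15.2 CPM in the SK-N-BE(2) controls and 14.2, 15.7 and 16.8 CPM with ML210 (log2 -0.02, SE 0.172, adjusted p = 0.993). MITF, the family's melanocyte lineage factor, was at 13.1, 13.0 and 12.6 CPM and at 13.9, 12.2 and 13.0 CPM (log2 0.01, SE 0.121, adjusted p = 0.998). For both genes the control and ML210 libraries were interleaved. In label SK-N-AS the log2 differences of TFEB and MITF were -0.06 (95% interval -0.46 to 0.33) and -0.05 (-0.35 to 0.24).

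Of the 8 glycosidases and other hydrolases, 1 rose with ML210 in label SK-N-BE(2) and none fell (0.818% and 0.557% of all genes). NEU1 is the lysosomal sialidase (ENSG00000204386, chr6:31857659-31862906, minus strand). It was at 47.5, 50.4 and 46.0 CPM in the controls and 64.7, 61.8 and 57.2 CPM with ML210, so that the groups were separate (log2 0.35, SE 0.0609, adjusted p = 0.0154). The call held in 14 of 19 alternative settings. It was lost with only the 2 groups compared and without control 1, control 3, ML210 library 1 or ML210 library 2 of this label, where the highest adjusted p was 0.0946. GLA, the alpha-galactosidase deficient in Fabry disease (ENSG00000102393, chrX:101397803-101408012, minus strand), was at 38.1, 38.3 and 34.4 CPM in the controls and 79.5, 63.4 and 43.6 CPM with ML210. All 3 ML210 libraries were above the controls, but they spanned a wide range. The GLA log2 difference was 0.75 (SE 0.164, adjusted p = 0.0529), with an adjusted p of 0.00585 with the batch block and 9.65e-05 without ML210 library 3.

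The other hydrolases did not pass the test and lay between -0.04 and 0.29 on the log2 scale. ASAH1, acid ceramidase, was at 83.5, 83.7 and 82.7 CPM in the controls and 109, 99.8 and 87.6 CPM with ML210 (log2 0.25, adjusted p = 0.134, and 0.0405 with the batch block). The beta-hexosaminidase subunit gene HEXA had a log2 difference of 0.29 and GAA, acid alpha-glucosidase, one of 0.12. GLB1, SGSH and GUSB, which act on galactosides, heparan sulfate and glucuronides, were at 0.11, 0.06 and -0.04.

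The cathepsins and proteases split. CTSD, an aspartic protease (ENSG00000117984, chr11:1752752-1764573, minus strand), was at 93.3, 103 and 84.3 CPM in the SK-N-BE(2) controls and 267, 226 and 117 CPM with ML210. Every ML210 library was above every control, with library 3 nearest to them. The log2 difference was 1.12 (SE 0.241, adjusted p = 0.06). The adjusted p was 0.0405 with the batch block and 2.39e-06 without ML210 library 3, where the log2 difference was 1.37. In GENCODE 29, 41.7% of the CTSD exon bases also lie in exons of other genes on the same strand, so reads there could not be assigned to 1 gene by position.

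CTSL, a cysteine protease (ENSG00000135047, chr9:87725519-87731393, plus strand), was at 72.9, 74.5 and 62.9 CPM in the controls and 136, 112 and 78.2 CPM with ML210. Its groups were also separate, again with library 3 lowest (log2 0.63, SE 0.158, adjusted p = 0.0834, and 0.00635 with the batch block). CTSL has closely related pseudogenes, and how reads that fit both were counted is not given in the sources used here. CTSB, another cysteine protease, was at 279, 328 and 239 CPM in the controls and 277, 325 and 231 CPM with ML210. Within each batch the CTSB control and ML210 values lay close together (log2 -0.02, SE 0.122, adjusted p = 0.987). TPP1 was at 83.1, 79.7 and 78.5 CPM in the controls and 92.4, 95.3 and 87.2 CPM with ML210, separate groups. Its log2 difference was 0.19 (adjusted p = 0.274, 0.0386 with the batch block and 0.203 without ML210 library 3). CTSA and CTSZ had log2 differences of 0.03 and -0.06, and the 12 libraries held 0.590 to 1.09 CPM of CTSZ.

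Of the 6 lysosomal membrane proteins, all had a positive log2 difference in label SK-N-BE(2), from 0.22 to 1.45, and none passed the test on its own in this label. MCOLN1 is the calcium and iron release channel TRPML1 (ENSG00000090674, chr19:7522626-7534009, plus strand). It was at 26.1, 30.4 and 26.5 CPM in the controls and 36.7, 32.7 and 33.6 CPM with ML210. The groups did not overlap, and the gap was narrow at batch 2 (log2 0.31, SE 0.0782, adjusted p = 0.0678, 0.0249 with the batch block and 0.0688 without ML210 library 3). LAMP1, an abundant membrane glycoprotein (ENSG00000185896, chr13:113297241-113323672, plus strand), was at 371, 368 and 317 CPM in the controls and 428, 429 and 375 CPM with ML210. ML210 library 3 was only slightly above the highest LAMP1 control, while within each batch the ML210 value was higher (log2 0.22, adjusted p = 0.126, and 0.00866 with the batch block).

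LAMP2, which also takes part in chaperone-mediated autophagy, and NPC1, which exports cholesterol from the lysosome, each had a log2 difference of 0.32, with adjusted p of 0.122 and 0.165. With the batch block these were 0.00237 and 0.00823. GPNMB, a glycoprotein of lysosomes and melanosomes, was at 8.37, 7.48 and 9.94 CPM in the SK-N-BE(2) controls and 37.4, 21.5 and 10.7 CPM with ML210. Library 3 sat just above the controls (log2 1.43, SE 0.928, adjusted p = 0.592). GPNMB in label SK-N-AS was at 0.143, 2.96 and 3.00 CPM in the controls and 0.157, 2.19 and 3.73 CPM with ML210, low in library 1 and higher in the libraries that held the traces named above. CLN3, the gene of juvenile Batten disease, had 4 reads in its lowest library, and 25.2% of its exon bases lie in exons of other genes on the same strand. Its log2 difference of 1.45 had an SE of 0.609.

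PSAP is the precursor of the saposins, which present lipids to hydrolases. It was at 685, 740 and 685 CPM in the SK-N-BE(2) controls and 954, 937 and 752 CPM with ML210, separate groups with library 3 close to the highest control (log2 0.32, SE 0.0781, adjusted p = 0.0582, and 0.01 with the batch block). NPC2, the soluble cholesterol carrier, was at 93.5, 93.6 and 77.4 CPM and at 81.7, 85.1 and 72.5 CPM, so that each ML210 library was below its own control. That log2 difference of -0.14 had an SE of 0.166 and an adjusted p of 0.811.

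**Figure D2:**
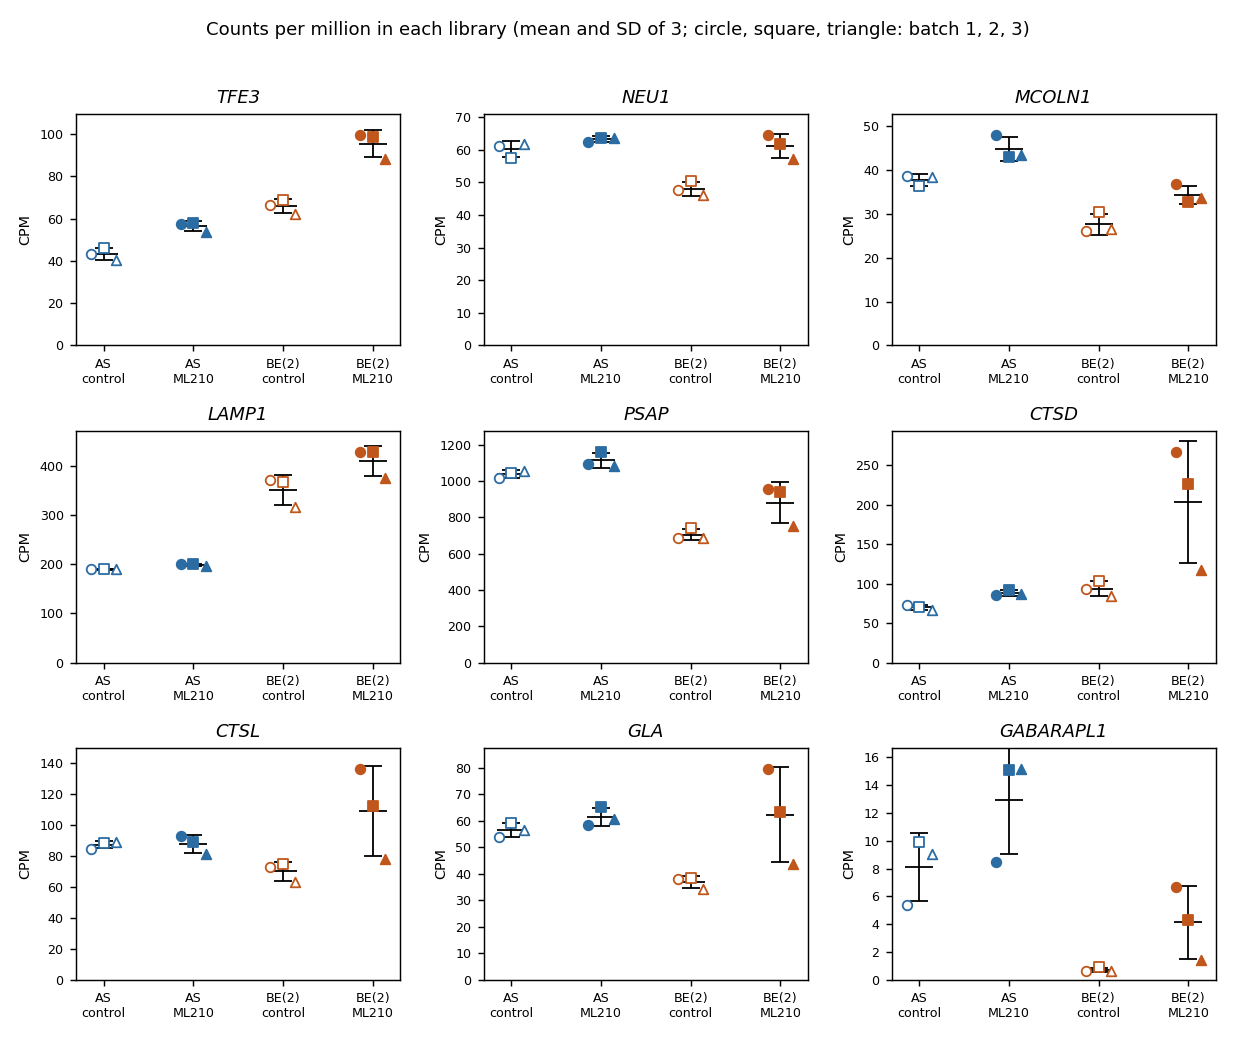
CPM (y axis, linear from 0) of 9 genes in each of the 12 libraries, by line label and treatment (x axis); open symbols are controls, filled symbols ML210, and bars show the mean and SD of 3. TFE3 separates in both labels, while CTSD, CTSL, GLA and GABARAPL1 spread widely in the SK-N-BE(2) ML210 group with batch 3 lowest.

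The 5 proton pump genes did not pass the test in label SK-N-BE(2), and their log2 differences ran from -0.01 to 0.31. ATP6V1A, the catalytic subunit, was at 79.7, 72.3 and 81.4 CPM in the controls and 117, 90.6 and 82.4 CPM with ML210, so that library 3 was barely above the controls (adjusted p = 0.165, 0.0588 with the batch block and 0.0173 without that library). The log2 difference of the accessory subunit gene ATP6AP1 was 0.17 (adjusted p = 0.166, 0.0415 with the batch block and 0.2 without ML210 library 3). ATP6V1H was at 0.14, ATP6V0D1 at 0.11 and ATP6V1B2 at -0.01.

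Among the ATG8 genes, GABARAPL1 had the largest log2 difference of the 43 in label SK-N-BE(2). GABARAPL1 (ENSG00000139112, chr12:10212458-10223130, plus strand) was at 0.633, 0.897 and 0.656 CPM in the controls and 6.67, 4.32 and 1.44 CPM with ML210. The controls were all under 1 CPM and the ML210 libraries all above it. The log2 difference was 2.50 (SE 0.53, adjusted p = 0.0531), and the adjusted p was 0.00542 with the batch block and 0.000723 without library 3. MAP1LC3B, which encodes the autophagosome marker LC3B, was at 37.1, 38.4 and 34.4 CPM and at 49.5, 42.8 and 37.9 CPM (log2 0.24, adjusted p = 0.212, and 0.0348 with the batch block). GABARAPL2 had a log2 difference of 0.03. GABARAPL1 and MAP1LC3B have near-identical copies, GABARAPL3 and MAP1LC3B2, so their counts are uncertain to that extent.

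The 3 autophagy receptors had log2 differences of 0.21 (TAX1BP1), 0.13 (OPTN) and -0.06 (NBR1) in label SK-N-BE(2), and none passed the test. TAX1BP1 had an adjusted p of 0.177, and of 0.0417 with the batch block. The 5 initiation and conjugation genes ran from -0.06 for BECN1 to 0.22 for WIPI1, with UVRAG, ULK1 and ATG7 between, and none passed, nor with the batch block. RRAGD, a RAG GTPase known as a MiT/TFE target, was at 2.86, 3.37 and 4.79 CPM in the controls and 5.60, 4.76 and 5.20 CPM with ML210, where control 3 and ML210 library 2 nearly coincided (log2 0.50, adjusted p = 0.189). FLCN, folliculin, had a log2 difference of 0.35 (adjusted p = 0.165, 0.0921 with the batch block and 0.0347 without ML210 library 3).

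In the libraries labelled SK-N-AS, no member passed the test in either direction. Over all genes 0.0246% were called higher and 0.00493% lower. The median log2 fold change was 0.07 against -0.008 over all genes, and 27 of the 43 were above 0 (47.5% of all genes). At an unadjusted p under 0.05, 5 were higher and 0 lower, where 6.89% of all genes passed in either direction. With the batch block 1 member was called higher, TFE3 (0.103% of all genes), and DESeq2 called 1 (0.177%). For 11 members all ML210 libraries lay above all controls (6.01% of all genes), and for 2, ATP6V1B2 and BECN1, all lay below (8.86%). The 3 members with the smallest adjusted p were TFE3, given above, MCOLN1 and WIPI1.

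MCOLN1 in label SK-N-AS was at 38.6, 36.3 and 38.5 CPM in the controls and 48.1, 43.1 and 43.4 CPM with ML210, separate groups (log2 0.25, 95% interval 0.07 to 0.42, adjusted p = 0.543). WIPI1, a phosphoinositide reader of early autophagosomes, was at 2.21, 2.28 and 2.05 CPM and at 3.03, 2.88 and 2.53 CPM, also separate (log2 0.37, adjusted p = 0.573). CTSD was at 73.1, 70.0 and 67.1 CPM and at 85.4, 91.9 and 87.0 CPM. In this label the CTSD libraries lay close together within each group (log2 0.33, 95% interval -0.22 to 0.88, adjusted p = 0.857). GABARAPL1 was at 5.37, 9.93 and 9.05 CPM and at 8.46, 15.1 and 15.2 CPM. The groups overlapped, and each ML210 library was above the control of its batch (log2 0.67, adjusted p = 0.833). CTSL was at 84.6, 88.1 and 88.7 CPM and at 92.8, 88.9 and 81.2 CPM, with no common direction over the batches (log2 0.01, 95% interval -0.36 to 0.37).

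Averaged over both labels, the ML210 response was called higher for 3 members, TFE3, MCOLN1 and NEU1, and lower for none, against 0.699% and 0.532% of all genes. The mean log2 fold change of TFE3 was 0.46 (SE 0.0488, adjusted p = 0.000668), called under all 18 alternative settings run. That of MCOLN1 was 0.28 (SE 0.0551, adjusted p = 0.028), called under 8 of 18, and that of NEU1 was 0.21 (SE 0.043, adjusted p = 0.0327). The NEU1 mean came mainly from label SK-N-BE(2), with a log2 difference of 0.35 there and 0.07 in label SK-N-AS (adjusted p = 0.892). In label SK-N-AS, NEU1 was at 61.22, 57.55 and 61.91 CPM in the controls and 62.26, 63.75 and 63.75 CPM with ML210, a narrow gap. The calls of MCOLN1 and NEU1 were both lost when any 1 library was left out other than control 2 or ML210 library 3 of label SK-N-BE(2), with adjusted p of at most 0.0949 and 0.111. With the batch block the count was 14 (2.68% of all genes). In 6 members, TFE3, LAMP1, MCOLN1, CTSD, NEU1 and PSAP, all ML210 libraries lay above all controls within both labels, against 1.35% of all genes.

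The difference between the 2 responses was tested directly, as the response in label SK-N-BE(2) minus that in label SK-N-AS. No member was called, against 0.0% of all genes higher and 0.00493% lower, and at an unadjusted p under 0.05 there were 8 higher and 1 lower, where 7.16% of all genes passed in either direction. NEU1 had the smallest adjusted p (0.509), with a log2 difference of 0.28 and a 95% interval of 0.08 to 0.48. For GABARAPL1, the largest difference at 1.83, the interval ran from 0.22 to 3.43. The 95% interval of this log2 difference ran from 0.01 to 1.57 for CTSD, from 0.11 to 1.14 for CTSL and from 0.10 to 1.16 for GLA. For TFE3 it ran from -0.07 to 0.38 and for MCOLN1 from -0.19 to 0.32. NBR1, an autophagy receptor, was the member lower at an unadjusted p under 0.05, with an interval of -0.58 to -0.01 and an adjusted p of 0.656. Without SK-N-BE(2) ML210 library 3, 3 members were called higher, CTSD, CTSL and GLA (0.461% of all genes).

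**Figure D3:**
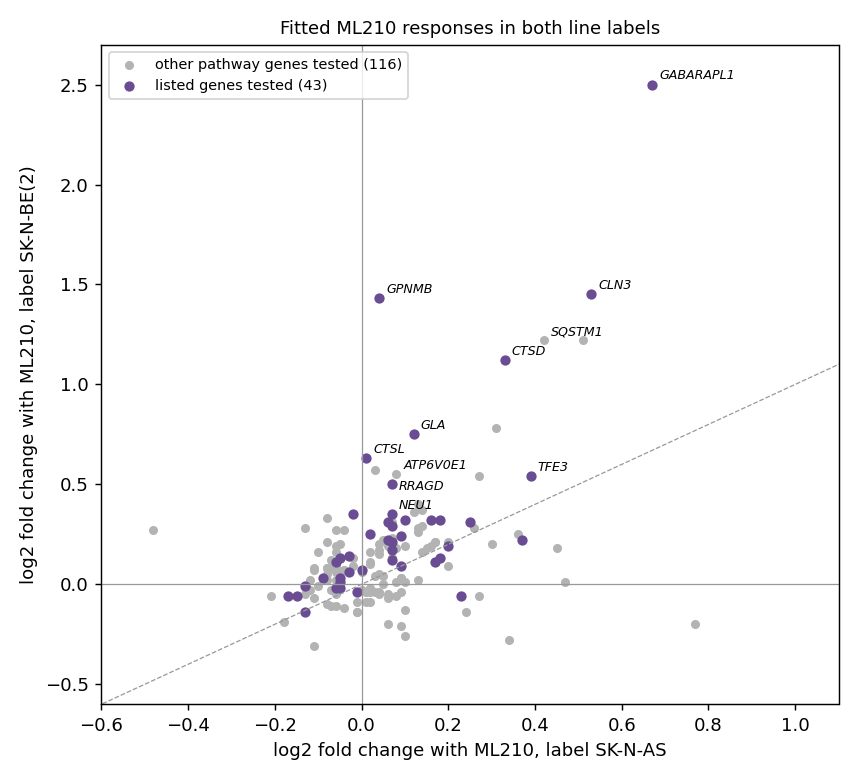
Fitted log2 fold change with ML210 in label SK-N-AS (x axis) and label SK-N-BE(2) (y axis) for the 43 listed genes (purple) and 116 other lysosome, autophagy and mTORC1 genes (grey); the dashed line marks equal responses. TFE3 lies near the line at 0.39 and 0.54, and GABARAPL1, GPNMB, CLN3, CTSD, GLA and CTSL lie above it.

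Of 120 other lysosome, autophagy and mTORC1 genes, 116 were tested. In label SK-N-BE(2), 5 rose with ML210 and none fell (0.818% and 0.557% of all genes), and in label SK-N-AS none was called (0.0246% and 0.00493%). The autophagy receptor SQSTM1 (p62) was at 184, 219 and 171 CPM in the SK-N-BE(2) controls and 570, 487 and 283 CPM with ML210, again with library 3 nearest to the controls (log2 1.22, adjusted p = 0.0268, called in 11 of 19 alternative settings). Among the settings that lost the SQSTM1 call were those without any 1 SK-N-BE(2) control or without ML210 library 1 or 2 of that label. Those without SK-N-AS ML210 library 2 or 3 also lost it. In label SK-N-AS, SQSTM1 was at 126, 118 and 123 CPM and at 169, 163 and 159 CPM, separate groups that did not pass (log2 0.42, adjusted p = 0.765). Also among them were the pump subunit genes ATP6V0E1 (log2 0.55, adjusted p = 0.0174) and ATP6V0B (0.31, adjusted p = 0.0277) and the chloride exchanger gene CLCN7 (0.36, adjusted p = 0.0332). The calls of ATP6V0E1 and ATP6V0B each held in 14 of 19 alternative settings, and that of CLCN7 in 10. The mean response was called higher for 6 of the 116 (0.699% of all genes), among them SQSTM1, ATP6V0E1, CLCN7, the nuclease gene DNASE2 (log2 0.30) and the amino acid sensor gene SLC38A9 (0.32). These mean calls held in 6 of 18 alternative settings for SQSTM1, ATP6V0E1 and CLCN7 and in 10 of 18 for DNASE2 and SLC38A9. NCOA4, the receptor that delivers ferritin to lysosomes, was at 187, 184 and 162 CPM in the SK-N-BE(2) controls and 185, 192 and 165 CPM with ML210, overlapping groups.

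The controls of the 2 labels differed far more than either label did with ML210. Of the 43 genes, 15 were higher in the SK-N-BE(2) control and 19 lower (adjusted p under 0.05), against 33.9% and 35.2% of all genes, and 9 did not pass. The median log2 difference was -0.18 against -0.005 over all genes. When library totals replaced TMM scaling the split was 18 higher and 13 lower (42.2% and 27.3% of all genes), with a member median of 0.07 against 0.243 over all genes. A fit without SK-N-AS libraries 2 and 3 left control library 1 alone in that label, so only log2 differences are quoted from it below. The labels differ in line, in marker genes and against their stated MYCN status, and the part of each in these values cannot be told apart.

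The proton pump genes were all 5 lower in the SK-N-BE(2) control (35.2% of all genes), 4 of them with library totals (27.3%). ATP6V1B2, a subunit of the pump's cytosolic ring, was at 514, 522 and 551 CPM in the SK-N-AS controls and 93.6, 95.9 and 104 CPM in the SK-N-BE(2) controls (log2 -2.44, SE 0.0636, adjusted p = 1.79e-12). The groups were far apart, with little spread inside either. The log2 differences of ATP6AP1, ATP6V1H, ATP6V0D1 and ATP6V1A were -0.81, -0.70, -0.56 and -0.48. The 3 ATG8 genes were also lower, 2 of them with library totals, against the same shares of all genes. Log2 differences were -3.47 for GABARAPL1, whose control values stand above, -1.92 for MAP1LC3B and -0.30 for GABARAPL2. For the 2 RAG control genes the log2 differences were -3.24 (RRAGD, at 30.9, 34.2 and 39.3 CPM in the SK-N-AS controls) and -0.64 (FLCN).

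The 3 autophagy receptors were higher in the SK-N-BE(2) control (33.9% of all genes), also with library totals (42.2%). TAX1BP1 was at 53.7, 61.2 and 57.9 CPM in the SK-N-AS controls and 147, 147 and 144 CPM in the SK-N-BE(2) controls, without overlap (log2 1.34). OPTN, which is known from mitophagy, differed by 1.99 on the log2 scale and NBR1 by 0.78. Of the initiation genes, WIPI1 (log2 2.94), ULK1, the initiating kinase (0.65), and BECN1, a subunit of the lipid kinase complex (0.28), were higher, while UVRAG, another partner in that complex, was lower (-1.58). ATG7, the conjugation enzyme, had a log2 difference of 0.13 (adjusted p = 0.237).

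Of the MiT/TFE factors, 2 were higher in the SK-N-BE(2) control (33.9% of all genes). TFE3 differed by 0.61 on the log2 scale (SE 0.0692, adjusted p = 2.68e-06), with the control values given above. MITF was at 4.96, 4.58 and 4.05 CPM in the SK-N-AS controls against 13.1, 13.0 and 12.6 CPM (log2 1.51, SE 0.126, adjusted p = 1.03e-07). The MITF groups were separate. Of the melanocyte markers, TYRP1 and PMEL were also higher in that control (log2 7.10 and 3.67). DCT was lower (log2 -3.48), MLANA did not pass (adjusted p = 0.167) and TYR had no read there. TFEB was at 12.4, 19.2 and 19.5 CPM in the SK-N-AS controls, spanning the SK-N-BE(2) controls (log2 -0.11, SE 0.171, adjusted p = 0.598), and its log2 difference was 0.14 with library totals and 0.35 without SK-N-AS libraries 2 and 3.

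The largest control difference of the list was that of NPC2. It was at 2.24, 4.05 and 3.57 CPM in the SK-N-AS controls and 93.5, 93.6 and 77.4 CPM in the SK-N-BE(2) controls (log2 4.75, SE 0.202, adjusted p = 1.71e-09), and at 5.30 on the log2 scale without SK-N-AS libraries 2 and 3. NPC2 was thus low in every SK-N-AS control, and lowest in library 1. Its partner NPC1 differed by 1.05 and LAMP1 by 0.89, both higher, while MCOLN1 was lower (log2 -0.45, adjusted p = 0.000147). PSAP, at 1016, 1046 and 1056 CPM in the SK-N-AS controls, was lower in the SK-N-BE(2) controls, with a log2 difference of -0.56. Among the hydrolases 3 were higher (33.9% of all genes), GAA (log2 2.00), SGSH (0.76) and HEXA (0.68). Another 5 were lower (35.2% of all genes), from -0.64 for ASAH1 to -0.26 for GLB1, but with library totals only 1 was lower (27.3%). TPP1, a tripeptidyl peptidase, was higher (1.12) and CTSB lower (-0.78). The smallest control differences were those of CTSZ (0.06), TFEB (-0.11), CTSA (0.12), ATG7 (0.13) and LAMP2 (-0.18), none of which passed. With a batch block shared by both labels CTSA was called (adjusted p = 0.0378), and so was CTSL (log2 -0.31, adjusted p = 0.0985 without the block and 0.0459 with it). Deviations of same-batch controls of the 2 labels from their group means correlated at only -0.082, -0.003 and -0.027.

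**Figure D4:**
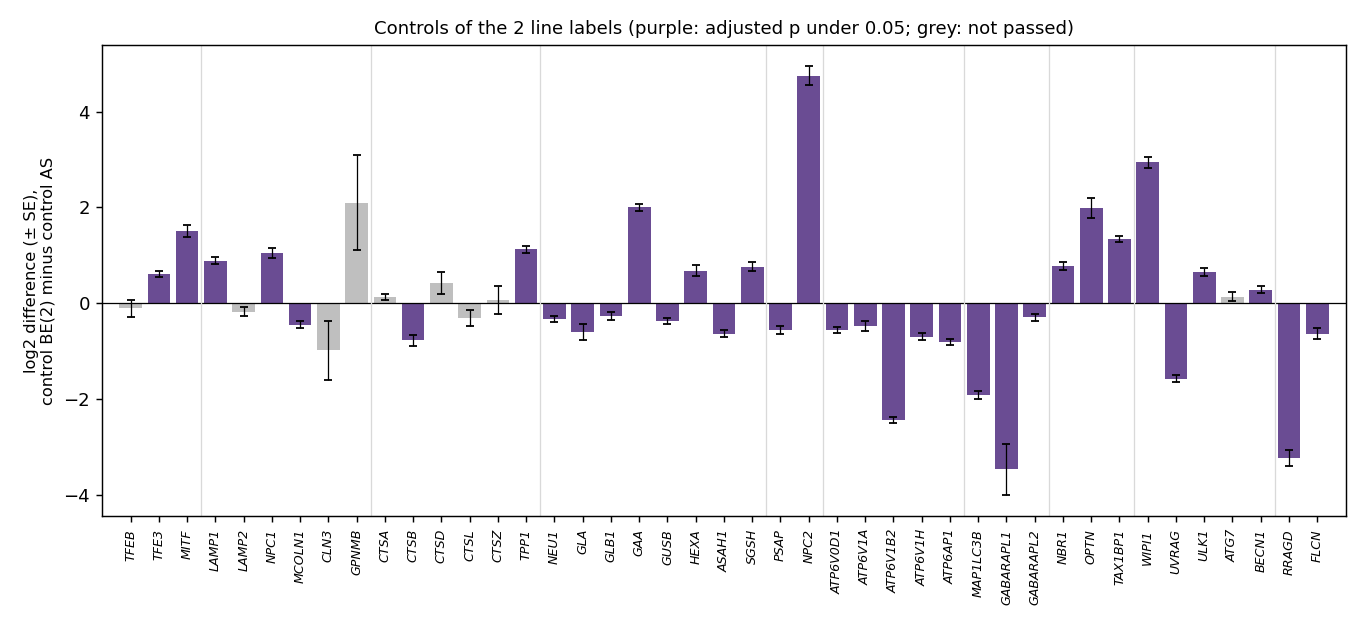
Log2 difference between the controls, SK-N-BE(2) label minus SK-N-AS label (y axis, bars with SE), for the 43 genes by role (x axis); purple bars have an adjusted p under 0.05. All 5 proton pump and 3 ATG8 genes are below 0 and all 3 receptors above it with TMM scaling, and NPC2 at 4.75 is the tallest bar.

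Among the other pathway genes, 41 of 116 were higher and 47 lower in the SK-N-BE(2) control, where 33.9% and 35.2% of all genes were called. With library totals the counts were 56 and 36, against 42.2% and 27.3% of all genes. Of 13 other proton pump genes, 2 were higher and 9 lower, against the same shares of all genes, among them ATP6V0E2 (log2 -2.19) and ATP6V1F (-1.09). The acid amidase gene NAAA, at 32.9 ± 0.745 CPM (SD, n = 3) in the SK-N-AS control and 0.386 ± 0.118 CPM in the SK-N-BE(2) control, had a log2 difference of -6.41, and the carboxypeptidase gene PRCP one of -3.45. The receptor gene CALCOCO2 (1.49), the lipid kinase gene PIK3C3 (1.58) and the RAG gene RRAGC (1.25) were higher.

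Per kilobase of annotated exon, PSAP was the most abundant member in both controls, at 320.8 CPM per kb in label SK-N-AS and 217 in label SK-N-BE(2). In label SK-N-AS, ATP6V1B2 (67.7), CTSB (65.2) and ATP6AP1 (61.2) followed. In label SK-N-BE(2) the next were LAMP1 (61.3), GAA (38.7) and CTSB (37.9). TFE3 was at 10.1 and 15.4 CPM per kb, above TFEB (3.02 and 2.80) and MITF (0.630 and 1.80) in both labels. CLN3 was lowest in both, at 0.018 and 0.00909, from 36 and 18 reads over all controls of each label. Its shared exon bases, given above, make this count uncertain. The exon lengths count every annotated exon of a gene, which understates genes with many unused exons.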

How the data were processed

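Stranded mRNA libraries were sequenced on an Illumina NovaSeq, per the labels' protocols. The submitters' processing notes name FastQC, Trimmomatic 1.4, HISAT2 2.2.1, featureCounts 2.0.5 and build GRCh38 (hg38). Which annotation and strand setting were used, and how reads that fit several genes were handled, is not given in the sources used here. The authors deposited 1 table of raw counts, whole reads per Ensembl gene, with no normalization. Symbols came from a gene name table for 61399 of 61552 IDs and from GENCODE 29 for 145, and 8 had none. Groups and replicate numbers came from the sample titles. No label says whether replicates were separate cultures beyond a batch number, so p-values measure the spread between these libraries.

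Counts of all 12 libraries were fitted together in edgeR 4.0.16 (R 4.3.3), with filterByExpr by group, TMM factors of 0.896 to 1.093, group means only, and a robust quasi-likelihood test with 8 residual degrees of freedom; the common dispersion was 0.0223. P-values were two-sided, Benjamini-Hochberg adjusted over 20304 genes and called under 0.05. CPM values use the TMM library sizes. The script was tested on simulated data. Alternatives were DESeq2 1.42.0, its size factors, library totals, no or a stricter low-count filter, fewer groups, a replicate block, and each library left out. The replicate block was fitted within each label for the ML210 comparisons and shared by both labels for the control comparison. The replicate number equals the labelled batch, which pairs the libraries. Deviations of same-batch control and ML210 libraries from their group means correlated at 0.357, 0.068 and 0.121 in label SK-N-AS and 0.096, 0.12 and 0.169 in label SK-N-BE(2). In label SK-N-AS, control 2 correlated at 0.189 with ML210 library 3, and control 3 at 0.125 with ML210 library 2. These values do not set batches 2 and 3 of that label apart. Its other cross-batch values were -0.269 to -0.166, and those of label SK-N-BE(2) were -0.1 to -0.007. Precision is limited by 3 libraries per group and, for genes under 1 CPM, by counting error.

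The members, the other gene lists and the tests were chosen with earlier results of these data known. Named genes were TFEB, TFE3 and MITF, members called in an ML210 comparison (the 3 with the smallest adjusted p where none was), the 15 largest and 5 smallest control differences, and up to 4 called genes per list of other pathway genes; further members were named after their values were seen. A gene of the other pathway lists is not reported here. Endothelial, Schwann cell and epithelial markers summed to at most 39.2, 16.2 and 231 CPM in any library.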

Additional observations from a re-analysis of the deposited data

How the results depend on the processing

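The count of members called higher depended on the setting in each ML210 comparison. In label SK-N-AS it was 0, and 1 with library totals (0.0345% of all genes), with no filter (0.0622%), with the replicate block (0.103%) and with DESeq2 (0.177%). In label SK-N-BE(2) it was 2 (0.818% of all genes). It was 5 with library totals (1.01%), 4 with no filter (0.736%) and 5 with the stricter filter (1.51%). With the replicate block it was 16 (3.42%), with only the groups compared 1 (0.0816%) and with DESeq2 8 (2.12%). Leaving out 1 library gave 1 to 15. The highest was without ML210 library 3, where the share of all genes was also higher, at 2.64%. For the mean of both responses it was 3 (0.699% of all genes). It was 5 with library totals (1.17%), 6 with no filter (0.668%), 14 with the replicate block (2.68%) and 8 with DESeq2 (1.92%). Leaving out 1 library gave 1 to 13, again highest without that library (2.2% of all genes). For the difference of the responses, leaving out 1 library gave 0 to 3, with 3 when that library was left out (0.461% of all genes). The cause was not tested. No member was called lower in an ML210 comparison under any setting run.

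Directions changed only for genes that did not pass. With library totals the log2 difference of MITF was 0.01 for the mean response, that of TFEB was -0.01 for the difference of responses and 0.14 between controls, and that of LAMP2 was 0.07 between controls. With no filter MITF was at -0.00 in label SK-N-BE(2). Without SK-N-AS libraries 2 and 3, chosen after seeing the data, TFEB was at 0.35 and CTSZ at -0.15 between controls. Leaving out 1 library gave MITF -0.14 to 0.06 in label SK-N-AS, -0.05 to 0.04 in label SK-N-BE(2), -0.06 to 0.03 for the mean and -0.04 to 0.15 for the difference. TFEB ran from -0.25 to 0.09, -0.10 to 0.03, -0.14 to 0.03 and -0.11 to 0.22 in the same order, and from -0.29 to 0.00 between controls, where CTSZ ran from -0.08 to 0.17. Of the other values of named genes, 1222 kept direction and call, 122 lost the call and 13 gained it.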

Other observations

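The 8 members with CACGTG in the RefSeq promoter window had a median log2 response to ML210 of 0.27 in label SK-N-BE(2) (range 0.03 to 1.45), against 0.15 for the 24 members without it (range -0.14 to 2.50). The 1.45 was that of CLN3, which had few reads, 18 in all controls and 48 in all ML210 libraries of that label (SE 0.609). In label SK-N-AS both medians were 0.07. The ranges overlapped throughout, and the largest response of the list, that of GABARAPL1, belonged to a promoter window without the hexamer. This is a description of 32 members, and no test was made of it.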
